A study of Mus musculus with 4 samples.

Results

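Slc4a1, Ank1, Rhag, Rhd, Kel, Ermap and Hemgn are 7 genes of the red cell membrane and of erythroid identity, and their transcripts were followed in sorted immature granulocytes that lacked the microRNA miR-223. They were taken by name, as all non-control array probes whose gene name equals one of these symbols, which gave 13 probes of 41174 and 7 gene names of 27674. Ank1 has 5 probes, Hemgn has 3, and the other 5 genes have 1 each. The 60-base probes count every transcript that carries their sequence, so the values are RNA levels and not protein.

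RNA came from immature granulocytes, the precursors of neutrophils, sorted out of bone marrow. The C57BL/6 males were wild type (WT, 2 arrays) or miR-223 KO (2 arrays), and the comparison addresses which transcripts differ when miR-223 is missing. Each sample was labelled with Cy3 and hybridised alone to an Agilent whole-genome array, and all 4 arrays lay on 1 slide read in 1 scan. The labels do not give the age, the sorting markers, how the allele was made, or whether replicates came from separate mice, so the spread behind each p-value may be only technical.

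Band 3, the anion exchanger encoded by Slc4a1, is the most abundant protein of the red cell membrane, and ankyrin, encoded by Ank1, ties it to the spectrin skeleton beneath. Rhag and the Rh protein encoded by Rhd sit in the same complex, while the Kell and Scianna blood group proteins, from Kel and Ermap, are single-pass surface proteins. Hemgn encodes hemogen, a nuclear protein of blood progenitors that is kept in the erythroid line. Many such genes are known as direct targets of the erythroid factors GATA1 and KLF1, and in bone marrow they are typical of erythroblasts and young red cells, not of granulocytes.

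The microRNA that the KO mice lack is shown to make the genotype concrete. Its mature sequence, from RefSeq (GRCm38.p6, chrX:96242884-96242905, plus strand), has the seed, bases 2 to 8, in capitals.

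miR-223-3p: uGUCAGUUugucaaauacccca

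The letters ACTGAC, which pair with seed bases 2 to 7, were searched in the sense of the transcript and occurred in 0 of the 13 member probes and in 1.41% of all probes (581 of 41174). A probe covers only 60 bases of a transcript, so this says nothing of the rest of it.

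RefSeq's promoter table (GRCm38.p6) held a window for 5 of the 7 genes, Rhag, Rhd, Kel, Ermap and Hemgn. GATA motifs, the sites that GATA factors are known to read, were searched in these windows of 300 bases, 250 before the start and 50 after it, as AGATAA or TGATAA on both strands. All 5 windows held at least 1, against 18.6% of 32851 promoter windows of the table. AGATAA alone was in 3 of the 5 (11.2% of all windows), TGATAA in 4 of the 5 (9.05%), and CACCC, the core of the box that KLF factors bind, in 4 of the 5 (57.5%). The stretches below, which lie before the start that the table gives, show the motifs in capitals, and they are given because these genes are grouped as erythroid.

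Rhag promoter: agtcctctgctcTTATCAacactatacagc

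Rhd promoter: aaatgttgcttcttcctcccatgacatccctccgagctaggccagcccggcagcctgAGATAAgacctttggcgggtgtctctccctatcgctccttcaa

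Kel promoter: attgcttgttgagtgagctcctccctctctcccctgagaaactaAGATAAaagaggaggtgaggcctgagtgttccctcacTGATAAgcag

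Ermap promoter: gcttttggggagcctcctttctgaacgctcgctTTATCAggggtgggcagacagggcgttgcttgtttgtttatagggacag

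Hemgn promoter: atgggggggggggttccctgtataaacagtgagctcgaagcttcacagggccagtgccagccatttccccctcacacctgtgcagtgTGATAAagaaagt

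The stretches lie at chr17:40811106-40811135 (plus strand) for Rhag, chr4:134864436-134864535 (plus) for Rhd, chr6:41704335-41704425 (minus) for Kel, chr4:119190014-119190095 (minus) for Ermap and chr4:46404184-46404283 (minus) for Hemgn. TTATCA is TGATAA read on the other strand. The motif nearest the start began 13 bases before it in Hemgn, 19 in Kel, 31 in Rhag, 43 in Rhd and 67 in Ermap. The printed Rhag, Kel and Ermap stretches end short of that start, so their distances cannot be counted from the last letter. A match is a run of letters, not a measured binding site.

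In the KO samples, 11 of the 13 member probes read lower than in WT and 2 read higher. Of the 13, 5 are of Ank1 and 3 of Hemgn. By the brightest tested probe of each gene, 5 of 6 members were lower, against 8902 of all 16978 genes. The 3 genes with a probe well above background on every array, Slc4a1, Rhd and Hemgn, were lower in KO with no overlap between genotypes. Slc4a1 was lower by 1.54-fold and Rhd by 1.47-fold. Hemgn, with 2 such probes, was lower by 1.42-fold and, at its 3′ probe, 1.73-fold. Of all probes tested, 32.8% were lower and 26.3% higher with no overlap. Ermap stood on the other side, 2.07-fold higher in KO, with the direction depending on the background correction. None of the 13 differences passed the test across all probes, so each is given as values.

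Log2 levels below are log2 processed signal minus the array's 75th percentile, so 0 is that percentile and heights of different probes are not comparable. A probe was tested if at least 2 of the 4 arrays read it well above background, as held for 8 of the 13 member probes. These cover 6 genes. The other 5, 4 of Ank1 and the 1 of Rhag, missed that filter.

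**Figure D1:**
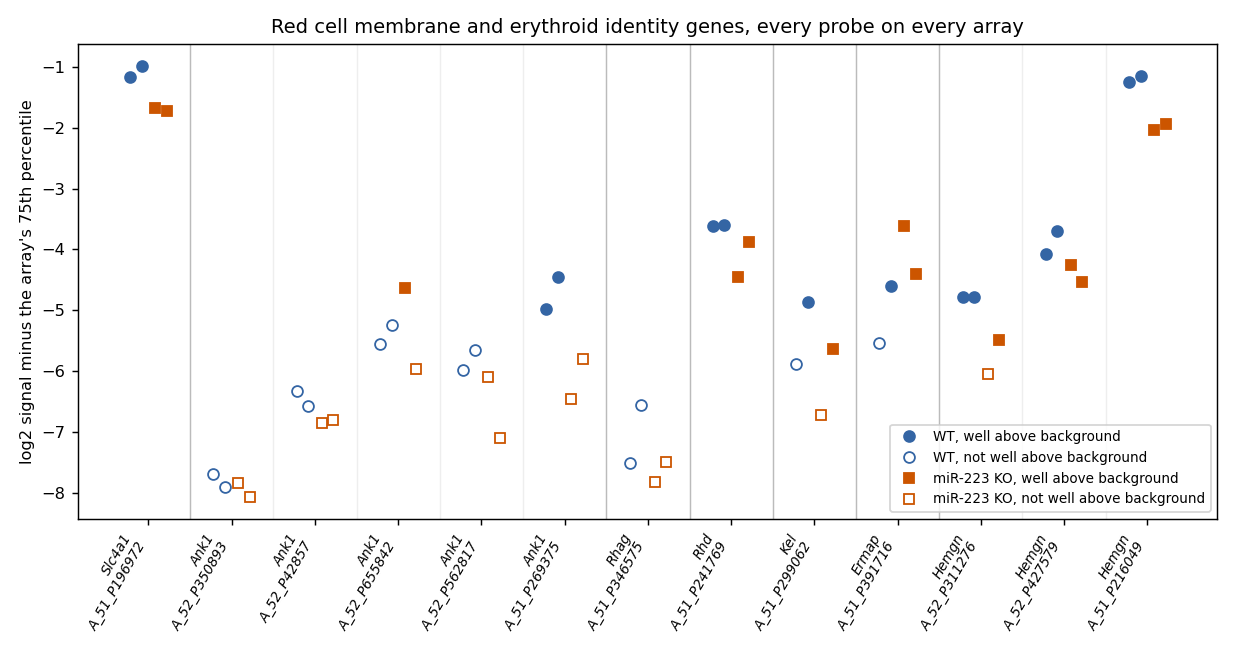
Log2 signal minus the array's 75th percentile (vertical axis) of each of the 13 member probes (horizontal axis) on each of the 4 arrays, with circles for WT, squares for miR-223 KO, and filled marks where the probe was well above background. Only Slc4a1, Rhd and the Hemgn probes A_52_P427579 and A_51_P216049 have 4 filled marks, with both KO squares below both WT circles. Heights of different probes are not comparable.

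Slc4a1, the chloride and bicarbonate exchanger, was read by probe A_51_P196972 (mm9 chr11:102210256-102210315, base 4368 of the transcript). Its processed signal was 139.7 and 158 intensity units on the WT arrays against 113 and 128 on the KO arrays. After scaling, these became log2 levels of -1.17 and -0.98 (WT) and -1.67 and -1.72 (KO). The probe was well above background on all 4 arrays, and both KO arrays lay below both WT arrays. The KO minus WT difference was -0.62 ± 0.11 (SE, n = 2 and 2), with limma's adjusted p = 0.0984. With a variance prior that follows intensity, limma's adjusted p was 0.0284, so the call rests on that choice.

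Ankyrin was read in several places of its transcript. Of the 5 Ank1 probes (mm9 chromosome 8), 3 bridge an exon junction, since their 60 bases align to the genome with a gap of 286, 2923 and 935 bases, and they are printed to show which pieces of the transcript were read.

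Ank1 A_52_P350893: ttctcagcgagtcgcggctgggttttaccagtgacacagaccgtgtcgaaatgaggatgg

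Ank1 A_52_P42857: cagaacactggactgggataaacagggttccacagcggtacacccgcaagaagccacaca

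Ank1 A_52_P655842: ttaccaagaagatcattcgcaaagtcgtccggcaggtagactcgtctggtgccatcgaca

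They lie at chr8:24231065-24231410, chr8:24243104-24246086 and chr8:24250690-24251684. The other 2 lie without a gap at chr8:24259629-24259688 and chr8:24260740-24260799, nearer the 3′ end.

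Only the last of them, A_51_P269375 at base 7917 of the transcript, was measured on both WT arrays. It read -4.98 and -4.46 in WT and -6.45 and -5.81 in KO, where it was not well above background on either array. Both KO arrays lay below both WT arrays, and the difference was -1.41 ± 0.31 (SE, n = 2 and 2; limma, adjusted p = 0.116). Since KO was not well above background, the size of this difference is uncertain. KO was 1.95-fold lower with each KO array set to the higher of the probe's own signal and the dimmest signal still well above background. That figure is not a lower limit. On KO replicate 2 the probe was not well above background at -5.81, though the dimmest signal that was lay at -6.12. Other background corrections, described below, gave differences of -1.36 and -0.44 for this probe.

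The 4 other Ank1 probes were too dim to be tested. A_52_P350893, at base 4555, read -7.69 and -7.90 in WT and -7.83 and -8.07 in KO. A_52_P42857, at base 5375, read -6.33 and -6.57 in WT and -6.86 and -6.81 in KO. A_52_P562817, at base 6806, read -5.98 and -5.65 in WT and -6.09 and -7.10 in KO. All 3 missed the mark for well above background on all 4 arrays. Their differences were -0.15, -0.38 and -0.78, and the last 2 kept the genotypes apart.

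A_52_P655842, at base 5728, was the exception in direction. It read -5.55 and -5.24 in WT and -4.63 and -5.96 in KO, and was well above background on the first KO array alone. The genotypes overlapped, and the difference of 0.10 became -0.57 without KO replicate 1, 0.77 without KO replicate 2 and -0.06 without WT replicate 1.

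**Figure D2:**
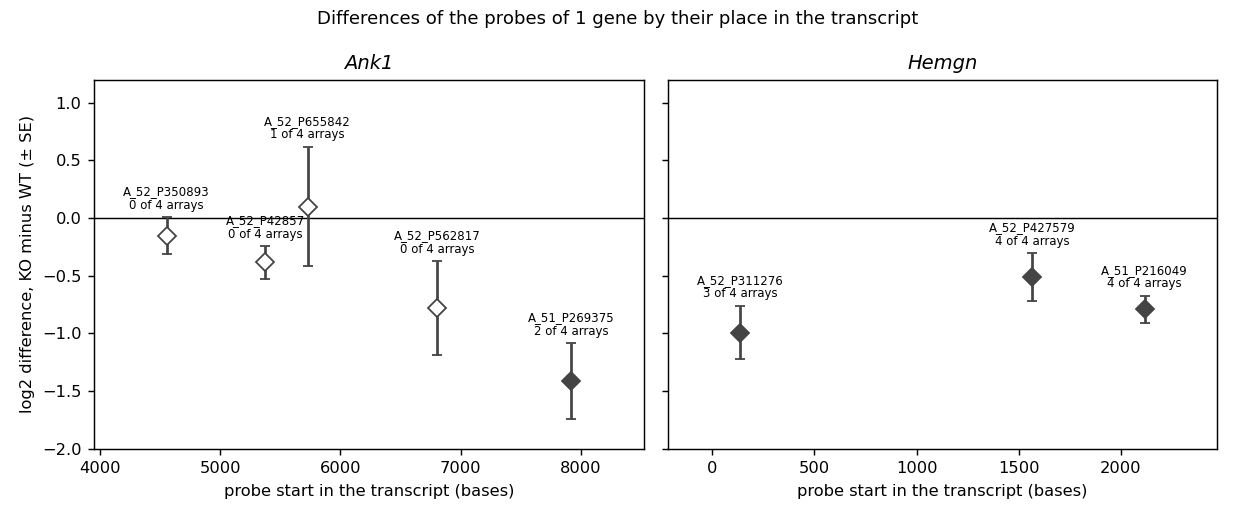
KO minus WT log2 difference ± SE (vertical axis) of the 5 Ank1 probes (left) and the 3 Hemgn probes (right) against the base of the transcript where each probe starts, with filled marks for probes that entered the test and the number of arrays well above background beside each. The SEs drawn, of filled and open marks alike, come from the fit with no filter, so those of filled marks differ from the SEs in the text. The Ank1 differences run from 0.10 to -1.41 and the 3 Hemgn differences from -0.51 to -0.99.

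The Rh complex was measured through Rhd but not through Rhag. Rhd, which encodes the Rh blood group protein of the mouse, was read by A_51_P241769 (mm9 chr4:134452018-134452077). Its processed signal was 25.7 and 25.7 intensity units in WT and 16.5 and 28.8 in KO, so KO replicate 2 lay above both WT arrays before scaling. Scaled, the probe read -3.61 and -3.60 in WT and -4.46 and -3.87 in KO, with both KO arrays below both WT arrays. It was well above background on all 4 arrays. The difference was -0.56 ± 0.22 (SE, n = 2 and 2; limma, adjusted p = 0.228), and it ranged from -0.85 to -0.27 when each array was left out in turn. Rhag encodes the glycoprotein that Rh proteins need to reach the surface. Its probe, A_51_P346575 (mm9 chr17:40976929-40976988), read -7.51 and -6.56 in WT and -7.83 and -7.50 in KO, was not well above background on any array, and overlapped between genotypes.

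Of the blood group genes that stand outside this complex, Kel and Ermap read in opposite directions. Kel encodes the Kell glycoprotein, a surface peptidase. Its probe A_51_P299062 (mm9 chr6:41636474-41636533) read -5.88 and -4.86 in WT and -6.72 and -5.63 in KO. It was well above background on 1 array of each genotype, the genotypes overlapped, and the difference was -0.81 ± 0.54 (SE, n = 2 and 2; limma, adjusted p = 0.409).

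Ermap, whose product carries the Scianna antigens, was read by A_51_P391716 (mm9 chr4:118848540-118848599) at -5.54 and -4.59 in WT and -3.62 and -4.41 in KO. It was well above background on 1 WT array and on both KO arrays, and both KO arrays lay above both WT arrays. The difference was 1.05 ± 0.44 (SE, n = 2 and 2; limma, adjusted p = 0.247), and 0.58 without WT replicate 1, the WT array where the probe was not well above background. With normexp background correction the difference was -0.95 when fitted on all spots and 0.03 when control spots were left out of the fit. In the fit on all spots the untested Ank1 probe A_52_P655842 also moved, from 0.10 to -1.16, and the median of all probes tested was -0.31. Ermap was above 0 in every other setting, so its direction rested on the background correction.

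Hemgn, the hemogen gene, was lower in KO at all of its probes. Its 3 probes lie on mm9 chromosome 4 at chr4:46416858-46416917, chr4:46407544-46408729 and chr4:46406995-46407054, from the 5′ to the 3′ end of the transcript. The second bridges an exon junction over a gap of 1126 bases and is printed for that reason. Where the junction falls within its 60 bases was not determined.

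Hemgn A_52_P427579: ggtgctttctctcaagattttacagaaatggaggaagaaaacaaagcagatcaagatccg

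The 3′ probe A_51_P216049, at base 2116, gave processed signals of 132 and 140.0 intensity units in WT and 87.9 and 109.9 in KO. Scaled, it read -1.25 and -1.15 on the WT arrays against -2.04 and -1.94 on the KO arrays. The difference of -0.79 ± 0.09 (SE, n = 2 and 2) had a limma adjusted p = 0.0897, and 0.0148 with the intensity trend. It stayed between -0.84 and -0.74 when each array was left out.

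The junction probe, at base 1567, read -4.07 and -3.69 in WT and -4.25 and -4.53 in KO, a difference of -0.51 ± 0.19 (SE, n = 2 and 2; limma, adjusted p = 0.206). The 5′ probe A_52_P311276, at base 138, read -4.78 and -4.79 in WT and -6.05 and -5.49 in KO, a difference of -0.99 ± 0.21 (SE, n = 2 and 2; limma, adjusted p = 0.115), though KO replicate 1 was not well above background. For all 3 Hemgn probes both KO arrays lay below both WT arrays after scaling. Before scaling the junction probe overlapped, at 18.7 and 24.1 units in WT and 19.0 and 18.3 in KO.

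Over the 8 tested member probes, 7 were lower in KO and 1 higher, and the genotypes stood apart in 6 lower and 1 higher. Ank1 A_51_P269375 is in these counts and the next, though it passed the filter through its WT arrays alone, and 3 of the 8 probes are of Hemgn. By the brightest probe of each of the 6 genes, 4 were lower and 1 higher with no overlap, against 30.5% and 28% of all genes. Against the shares of 32.8% and 26.3% over all 25749 probes tested, separation of 2 arrays from 2 is common here. At an unadjusted p under 0.05 limma had 4 member probes, all lower, against 13.6% of all probes tested lower and 11.1% higher. These 4 were Slc4a1, the 5′ and 3′ probes of Hemgn, and Ank1 A_51_P269375, again with its pass through WT alone. By the brightest probe 3 of the 6 genes, Ank1 among them, were lower at that p, against 12.1% of genes lower and 11.9% higher in limma. At an adjusted p under 0.05 limma called 0 members and 0 of 25749 probes (0%), with 6342 probes at an unadjusted p under 0.05. The smallest adjusted p of any probe was 0.0874, and an exact test of 2 arrays against 2 cannot go below p = 0.333.

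With the intensity trend, limma called 2 member probes, Slc4a1 and the 3′ probe of Hemgn, both lower, against 4.6% of probes lower and 5.03% higher. With normexp fitted without control spots it called 6, all lower (Slc4a1, Ank1 A_51_P269375, Rhd, Kel and the 5′ and 3′ Hemgn probes), against 8.44% of probes lower and 5.33% higher. Normexp was run with an offset of 50 units, above every processed signal of these Ank1, Rhd, Kel and 5′ Hemgn probes. Such an offset narrows both the differences and the spread of dim signals. Kel is among the 6 although its genotypes overlapped under the reported processing. The sizes were smaller there, from -0.36 for Rhd and Kel to -0.56 for the Hemgn 3′ probe. Of the 5 member probes below the filter, 4 were lower and 1 higher, and 2 were lower with no overlap, where 22.8% of such probes were lower and 6.88% higher without overlap.

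Dim probes read lower in KO as a body. The 13730 probes that were well above background on no array had a median KO minus WT difference of -0.20, against -0.03 over the probes tested, and the part this plays in the 4 member probes among them was not tested. The split of probes at an unadjusted p under 0.05 also moved with the scaling, from 55.1% lower to 36.9% with the median in place of the 75th percentile, 36.5% in the authors' values, 37.5% with normexp on all spots and 70.5% without control spots. Normexp on all spots shifted the median of all probes tested to -0.31. On WT replicate 1 the lowest control spot had a mean signal minus local background of -29870 units, and on the other arrays of -0.871 to -0.0656.

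**Figure D3:**
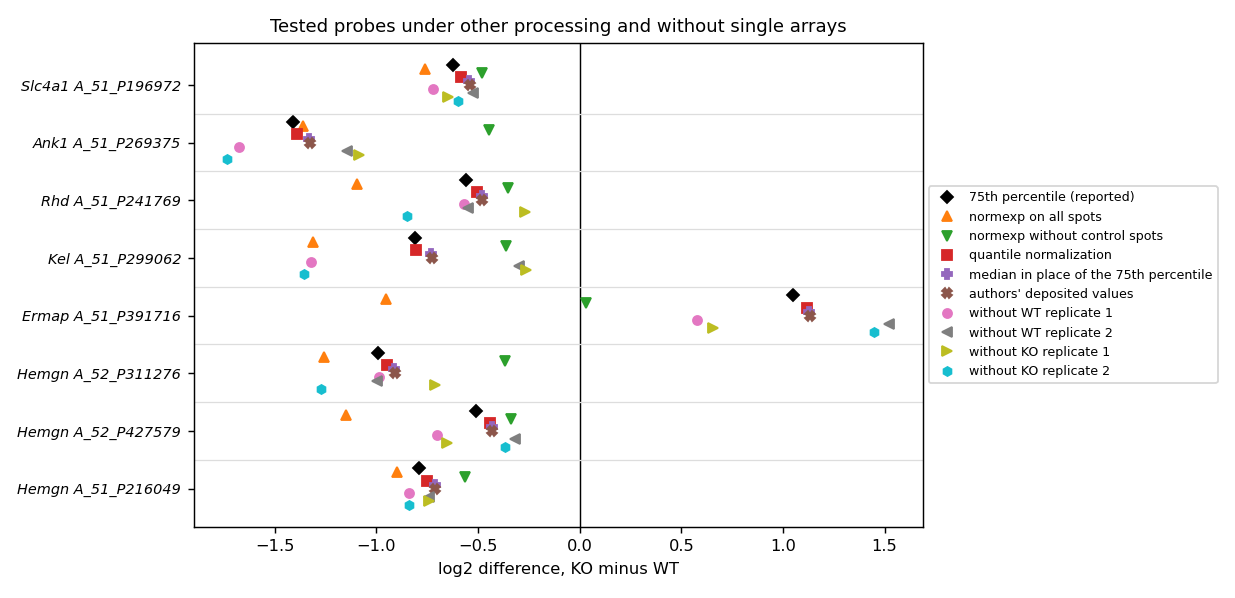
KO minus WT log2 difference (horizontal axis) of the 8 tested member probes (rows) under the reported processing, 5 other background corrections or scalings, and with each array left out. Ermap lies on both sides of 0, at -0.95 with normexp on all spots, and the 7 other probes stay below 0 in each setting drawn.

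The other erythroid genes were read from lists, each gene by its brightest probe that passed the filter, which 16978 genes had. Over these, 30.5% of genes were lower and 28% higher in KO with no overlap, 12.1% were lower and 11.9% higher at an unadjusted p under 0.05, and the median difference was -0.02. The 6 measured members had a median of -0.71, and of -0.62 with the filter on all 4 arrays, which drops Ank1, Kel and Ermap. None of the genes named from the lists passed limma's adjusted p, so they are described by their values.

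Globins read lower under the reported processing. All 5 that were measured, of 11 listed names, were lower in KO with no overlap and with an unadjusted p under 0.05, and their median was -0.62. Hbb-bt, an adult beta globin, read 6.68 and 6.64 in WT and 6.22 and 5.74 in KO, a difference of -0.68 ± 0.19 (SE). Hba-a1 differed by -0.61 ± 0.16, and Ahsp, the chaperone of free alpha globin, by -0.70 ± 0.20. Globin genes are near-identical copies, so a probe may read several of them. Without KO replicate 2 the list median was -0.42. With normexp on all spots it was -0.15, above the median of -0.31 over all probes tested in that setting.

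The membrane skeleton did not follow band 3 as a group. Of 14 listed genes 9 were measured, 5 lower and 4 higher, with a median of -0.06 that turned above 0 with normexp on all spots, median scaling, the authors' values, or KO replicate 2 left out. Dmtn, which bundles actin at the skeleton's junctions, was at -1.06 ± 0.19 and measured on 2 arrays, while Gypc, glycophorin C, was at 0.39 ± 0.12. Sptb, Epb42 and Tmod1, all typical of red cells, were among the genes well above background on fewer than 2 arrays.

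Among 18 measured genes for blood group and red cell surface proteins, 5 were lower and 13 higher, with a median of 0.10 that was -0.04 with normexp on all spots. Slc29a1, a nucleoside transporter, was at 1.21 ± 0.09, with limma's adjusted p = 0.0874 and 0.00285 with the intensity trend. Aqp1, the water channel, was at -0.99 ± 0.22. Xk, whose product is bonded to the Kell glycoprotein, was at 0.52 ± 0.17, where Kel itself was at -0.81 ± 0.54. Many of these 18 genes are also transcribed outside the erythroid line.

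Enzymes and regulators were also divided. Alas2, the erythroid enzyme that starts heme synthesis, read 0.65 and 0.66 in WT and 0.12 and -0.45 in KO, a difference of -0.82 ± 0.22, but the 11 heme synthesis genes were 5 lower and 6 higher. Of 9 measured genes of erythropoietin receptor signalling and iron entry 6 were lower and 3 higher, with a median of -0.05. Epor, the erythropoietin receptor, was at -0.75 ± 0.17 and Cish at -0.41 ± 0.15, both with no overlap and an unadjusted p under 0.05. Pim1 was at 0.19 ± 0.12 and the iron transporter gene Slc11a2 at 0.24 ± 0.19. Of 12 measured erythroid enzymes and related genes 7 were lower and 5 higher. Trim10, a ring finger protein of maturing erythroblasts, was at -0.70 ± 0.10, while Alox15, a lipoxygenase, was at 0.83 ± 0.09, the peroxiredoxin gene Prdx2 at 0.47 ± 0.10 and the catalase gene Cat at 0.39 ± 0.09. Among 13 measured transcription factors 5 were lower and 8 higher. Lmo2 was at 0.80 ± 0.08, Tal1 at 0.55 ± 0.10, Bcl11a at 0.27 ± 0.11 and Ikzf1 at -0.29 ± 0.09, whereas Gata1 and Klf1 were measured on fewer than 2 arrays.

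Of the paralogs, Ank2 and Ank3 were not measured, Slc4a2, the widely expressed relative of band 3, was at -0.17 ± 0.08, Rhbg at -0.95 ± 0.81 and Rhcg at 0.26 ± 0.10.

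**Figure D4:**
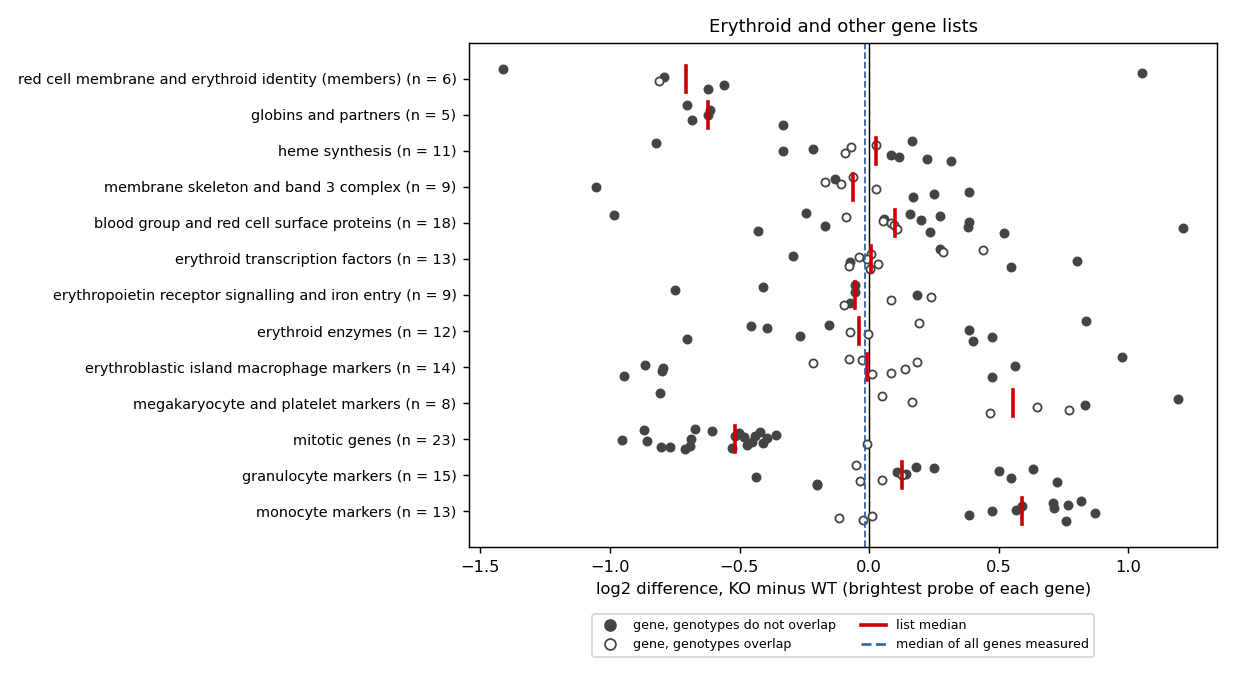
KO minus WT log2 difference (horizontal axis) of each measured gene in the member list and 12 other lists (rows), filled where the genotypes do not overlap, with a red bar at the list median and a dashed line at the median of all 16978 genes. The members and the globins have medians of -0.71 and -0.62. Several of the other medians change sign with the background correction.

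All 15 granulocyte markers found on the array were measured, 5 lower and 10 higher in KO. Their mean log2 level was 7.01 and 7.11 on the WT arrays against 7.23 and 7.21 on the KO arrays. The granule protease genes Prtn3, Ctsg and Elane were at 0.72 ± 0.10, 0.63 ± 0.09 and 0.50 ± 0.10. Fewer erythroid cells among the sorted cells and less of this RNA per cell cannot be told apart in such bulk samples.

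Other groups differed alongside the members, and their part in the members' values was not tested. All 23 mitotic genes were lower in KO, 22 with no overlap, with a median of -0.52 and list means of 3.18 and 3.10 in WT and 2.52 and 2.63 in KO. With normexp on all spots the mitotic median was -0.14, above the -0.31 over all probes tested there. Of 13 monocyte markers 11 were higher, with a median of 0.59 and list means of 2.98 and 2.88 in WT and 3.55 and 3.31 in KO.

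Of 14 markers of the macrophages that nurse erythroblasts 7 were lower and 7 higher, with list means of -1.10 and -0.82 in WT and -0.996 and -1.11 in KO. Spic, a factor of iron-recycling macrophages, was at -0.95 ± 0.18 and Cd163, the hemoglobin scavenger receptor, at -0.87 ± 0.15, while Adgre1, a common macrophage surface marker, was at 0.97 ± 0.12. Of 13 megakaryocyte and platelet markers 8 were measured, 1 lower and 7 higher, with list means of -1.93 and -1.52 in WT and -1.64 and -0.98 in KO. Their median of 0.55 was -0.46 with normexp on all spots and -0.02 without control spots. Gp9 was at 1.19 ± 0.11, Itgb3 at 0.83 ± 0.11 and Clec1b at -0.81 ± 0.19. Gp1ba, Gp5, Gp6 and Ppbp were among those well above background on fewer than 2 arrays. Of 10 measured stem and progenitor markers 9 were higher, with a median of 0.36 that was -0.73 with normexp on all spots and -0.05 without control spots. The medians were 0.29 for 10 eosinophil and basophil markers, -0.44 with normexp on all spots, -0.26 for 7 B cell markers, and -0.05 for 7 T cell markers, which took either sign.

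The genes most like the members in pattern were sought among 12089 genes well above background on all 4 arrays, by the distance between array values centred on each gene's mean and the mean centred profile of the 6 measured members. That profile was 0.03 and 0.50 on the WT arrays against -0.39 and -0.13 on the KO arrays. It averages unlike members. Ank1 A_51_P269375, at -1.41, passed the filter through its WT arrays alone, and Ermap, at 1.05, read the other way. The nearest were Thada (distance 0.0888), Cdca2 (0.0894), Wscd2 (0.0922), Khdrbs2 (0.0947) and Pde4c (0.0968), and 37 genes lay within double the fifth distance. How often other profiles over 4 arrays find genes this near was not tested.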

How the data were processed

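The deposited intensity of each spot is the background-subtracted processed signal of Agilent Feature Extraction 10.5.1.1, per the file headers, with mean spot and local background intensities in the same files; signals at background carry surrogate values. The table of values deposited by the authors is in log2 units: each column correlated with the log2 processed signal of its array (r of 0.9999 or more over 41174 probes) and had a median of 4.68 or 4.69, while the centring method is not given in the sources used here. Probe positions are on mm9, per the file headers, and no exon or UTR annotation was used.

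Log2 processed signals had each array's 75th percentile over non-control spots subtracted (311, 314, 361 and 422 units). Between 59.6% and 62.9% of spots were well above background and 0 were saturated. Outlier spots (75 to 81 per array, 0 of members) were kept, and left out in an alternative. The normexp alternatives used an offset of 50 units. Genotypes were compared probe by probe by lmFit and eBayes of limma 3.58.1 (R 4.3.3, prior degrees of freedom 1.99), with Benjamini-Hochberg adjustment over the 25749 probes well above background on at least 2 arrays. The procedure was tested on simulated data. The number of arrays limits the precision.

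Named genes are the members, up to 4 genes per list with the smallest p, and the 5 nearest in pattern. Xk and the genes given as not measured fall outside this rule and were chosen after their values were seen. Members and lists were chosen with earlier results of these data known. List symbols were matched through RefSeq (GRCm38.p6): 26933 probes through accessions, 5570 by current symbols, 894 by synonyms and 7777 by the name in the files. No probe is named for miR-223, so the deletion was not checked here.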

Additional observations from a re-analysis of the deposited data

How the results depend on the processing

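Under the reported processing limma called 0 probes, and 0 when each array was left out. It called 2480 probes (1185 lower in KO) with an intensity trend, 3545 (2173 lower) with normexp fitted without control spots, 106 (21 lower) with median scaling, 267 (56 lower) in the authors' values and 128 (40 lower) among probes above background on all 4 arrays. Member probes called were 2 with the trend and 6 with normexp without control spots, and 0 in the other settings. Ermap reversed to -0.95 with normexp on all spots. The single member higher with no overlap became 0 under both normexp fits, and 0 with the filter on all 4 arrays, which drops Ermap. The members' median of -0.71 became -1.03 with normexp on all spots and -0.40 without control spots, and lay between -0.85 and -0.46 when each array was left out. The cause of these shifts was not tested beyond the control spot described above. Same-numbered arrays did not deviate together (correlation 0.0267), and with the replicate number as a block limma called 0 probes and 0 members. Of the 5 member probes below the filter none had an adjusted p under 0.397 in the fit with no filter.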
